A study of Mus musculus with 28 samples.

Results

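Hepcidin and iron handling genes were followed in the liver RNA of male C57BL/6 mice with diet-induced or diabetes-related steatohepatitis. The group held 10 of the 20416 genes in each of 3 deposited tables, chosen by symbol: Hamp, Hamp2, Bmp6, Id1, Smad7, Tfrc, Tfr2, Slc40a1, Fth1 and Trf. In the diet study, 4 livers came from mice fed a diet without methionine and choline (MCD), a model of fatty liver with inflammation, and 4 from mice on its matched low-fat control diet (CD). In the STAM study, pups received streptozotocin, a toxin of the insulin-producing cells of the pancreas, at day 2 after birth, and high-fat diet was given from week 4 of age. That study held 5 STAM and 5 control (Ctrl) livers at 4 weeks and the same numbers at 10 weeks of age. The diet of the STAM livers is given as high-fat at both ages, so the 4-week livers had high-fat diet for a time that the labels do not state, if at all. For the diet study the sample titles and design text give 4 weeks and a further label gives 5 weeks. Whether each replicate was a separate mouse is not labelled, and the p-values rest on the spread between samples, part of which may be technical.

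Hepcidin is a small peptide hormone that hepatocytes secrete. It binds ferroportin, the cellular iron exporter, and takes it out of the membrane, so that less iron leaves gut cells, macrophages and hepatocytes. Its gene is switched on by iron through bone morphogenetic proteins (BMPs) from endothelial cells of the liver and the SMAD factors they activate, and by inflammation through interleukin 6 and STAT3. Inside cells, iron regulatory proteins hold messenger RNAs at a short hairpin, the iron-responsive element, and so match iron uptake and storage to the iron at hand.

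The 28 libraries held 16.2 to 25.9 M reads, recovered from deposited log2 CPM (reads of a gene per M reads of its library, on a log2 scale, scaled by the authors within each table). Hepatocyte markers, summed over 6 genes including Alb, lay at 38014 to 53023 CPM in 10-week STAM livers against 72990 to 98114 CPM in their controls, and at 61843 to 82423 CPM in MCD livers against 72091 to 96791 CPM in CD livers. At 4 weeks the sums were 98494 to 114403 CPM in STAM livers and 120365 to 143191 CPM in control livers. Alb made up most of each sum, with a mean of 66885 CPM in MCD and 62462 CPM in CD livers. Of the 6 genes, 4 were called lower in MCD, 1 in 4-week and 5 in 10-week STAM livers, with 0 higher. Scaled by total reads, 2 rose and 4 fell in MCD, 1 rose and 0 fell in 4-week, and 0 rose and 4 fell in 10-week STAM livers. With quantile normalization these counts were 1 and 1, 0 and 0, and 0 and 3. Recruited macrophage markers passed the test as higher for 6 of 7 genes in MCD livers and for 7 of 7 in STAM livers at either age. Their sum was 171 to 359 CPM in MCD against 29.9 to 46.0 CPM in CD livers, 53.9 to 88.3 CPM in 4-week STAM against 26.9 to 40.7 CPM in control livers, and 53.3 to 159 CPM in 10-week STAM against 14.7 to 23.3 CPM in control livers. Kupffer cell markers rose for 2, 6 and 2 of 7 genes in the MCD, 4-week and 10-week comparisons, with none lower. Of 8 stellate cell markers 4 rose and 1 fell in MCD and in 10-week STAM livers, and 1 rose and 2 fell at 4 weeks. Of 4 cholangiocyte markers 3 rose in MCD, 2 in 4-week and 3 in 10-week STAM livers. With quantile normalization 0 of these 4 passed in MCD and 0 in 10-week STAM livers. By limma-voom 0 of the 7 Kupffer cell markers passed in MCD livers. Control replicate 1 stood apart at both ages, with 482 of 10208 genes more than 2-fold from the other livers of its group at 4 weeks and 184 at 10 weeks, against 18 to 150 for the other libraries. Whole liver was sequenced, so fewer cells of a type and less RNA per cell cannot be told apart, and the part that cell makeup played in the results was not tested.

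In MCD livers Id1 and Smad7, genes that BMP signals switch on, were 4.58-fold and 1.90-fold higher than in CD livers, and Tfr2, an iron sensor of hepatocytes, was 2.52-fold lower. In 10-week STAM livers both hepcidin transcripts fell, Hamp 10.5-fold and Hamp2 17.0-fold, and so did the transferrin receptors Tfrc and Tfr2 and transferrin itself (Trf). Each gene was tested with limma on log2 CPM and called at an adjusted p under 0.05, with Benjamini-Hochberg adjustment over all 15312 genes tested per table. All 10 genes were tested in each table. In MCD against CD livers, 2 of 10 were called higher and 1 lower, where 42.7% of all tested genes were called, 22.6% higher and 20.1% lower. In STAM against control livers at 10 weeks 5 of 10 were called with the authors' scaling, each of them lower. There 47.8% of all tested genes were called, 25.3% higher and 22.5% lower. Counted in either direction, 3 of 10 in MCD and 5 of 10 in 10-week STAM livers are not apart from these backgrounds. Scaled by total reads, Tfr2 did not pass at 10 weeks (limma adjusted p = 0.203) and Fth1 passed as higher (limma adjusted p = 0.00717). With quantile normalization Tfr2 and Trf did not pass at 10 weeks. That all calls were lower thus depends on the scaling.

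At 4 weeks of age 0 of 10 were called in STAM against control livers by limma, and 0 by limma-voom, where 9.80% of all tested genes were called. At an unadjusted p under 0.05 there were 2, Hamp2 and Bmp6. The median log2 fold change of the 10 genes was 0.29 in MCD livers, -0.08 in 4-week and -0.41 in 10-week STAM livers, against 0.07, 0.01 and 0.05 over all genes tested. When libraries were scaled by total reads instead, the median of all genes moved to 0.49 in the MCD, 0.09 in the 4-week and 0.33 in the 10-week comparison. The share of higher genes among those called was then 86.1%, 83.7% and 88.0%, against 52.9%, 66.6% and 53.0% with the authors' scaling. All changes are given relative to the authors' scaling.

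**Figure D1:**
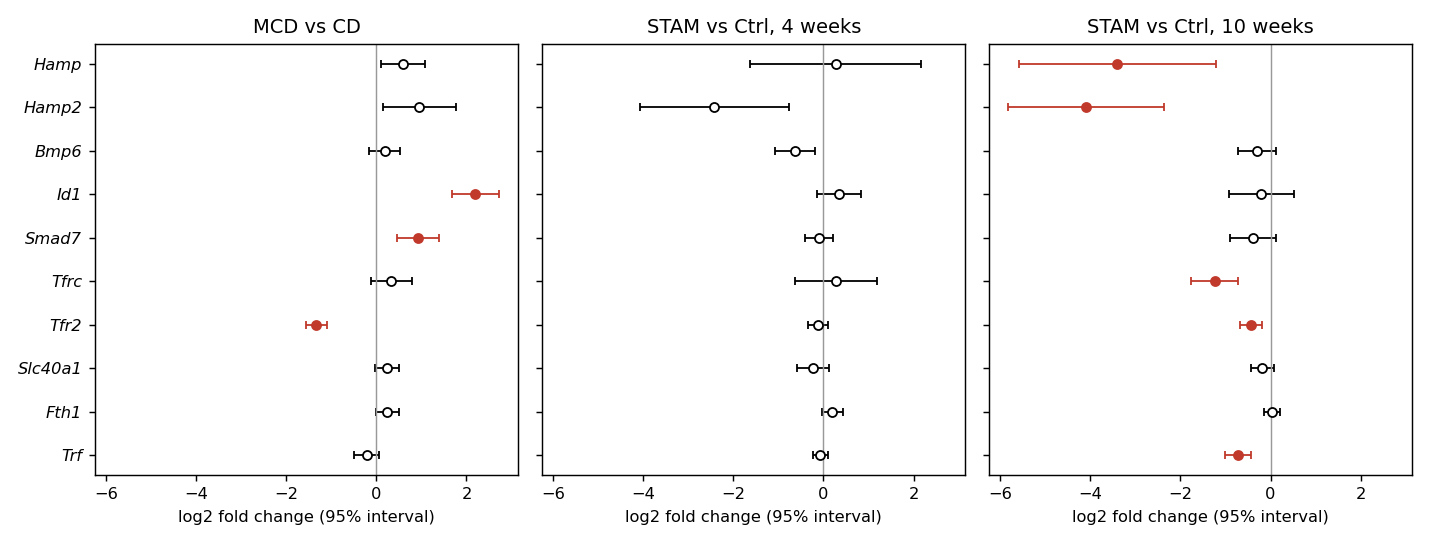
Log2 fold changes of the 10 genes in MCD over CD livers and in STAM over control livers at 4 and 10 weeks. Points are limma estimates and bars their 95% intervals; filled red points were called at an adjusted p under 0.05, which were Id1, Smad7 and Tfr2 in MCD livers, none at 4 weeks, and Hamp, Hamp2, Tfrc, Tfr2 and Trf at 10 weeks.

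Mice carry a pair of hepcidin genes side by side on chromosome 7. Hamp (NM_032541, mm10 chromosome 7, 30942369 to 30944017, minus strand) encodes the iron hormone, and Hamp2 (NM_183257, chromosome 7, 30922372 to 30924181, minus strand) a closely related peptide that did not act as an iron hormone in transgenic mice. Their sequences are shown because their balance differed between the 4-week groups. The RefSeq promoter table (GRCm38.p6) held a window for both, and the 250 bases before each start were 89.7% identical. Capitals mark TTCTTGGAA, known in Hamp as its STAT3 site, and GGCGCC, the core of its BMP-responsive element.
Hamp promoter, chr7:30944030-30944279, minus strand: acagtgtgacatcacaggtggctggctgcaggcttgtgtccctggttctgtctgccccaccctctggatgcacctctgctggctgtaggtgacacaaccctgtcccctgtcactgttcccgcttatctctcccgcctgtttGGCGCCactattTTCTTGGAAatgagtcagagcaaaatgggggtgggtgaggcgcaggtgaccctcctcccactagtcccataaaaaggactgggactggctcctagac
Hamp2 promoter, chr7:30924182-30924431, minus strand: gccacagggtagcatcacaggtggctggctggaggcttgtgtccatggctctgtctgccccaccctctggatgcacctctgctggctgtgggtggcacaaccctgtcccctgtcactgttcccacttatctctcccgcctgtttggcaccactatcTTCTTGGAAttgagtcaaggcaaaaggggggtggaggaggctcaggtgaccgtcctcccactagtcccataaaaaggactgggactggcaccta

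Both windows held TTCTTGGAA, 97 bases before the start in Hamp and 94 in Hamp2. Distances are counted from the end of each window. The Hamp2 window adjoins its gene as listed above. The Hamp window ends at 30944030, some bases before the listed gene begins at 30944017 on the minus strand. GGCGCC lay 109 bases before the start of Hamp and was not among the letters of the Hamp2 window, where the substitution G145A, counted from the 5′ end of the Hamp window, falls within it. On both strands, 9.59% of the 32851 windows of this table held GGCGCC and 0.365% held TTCTTGGAA in the same 250 bases. Besides these, windows were listed for Bmp6, Tfrc, Tfr2 and Fth1, and of these only a Tfrc window held GGCGCC and none held TTCTTGGAA.

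The coding sequences were 92.5% identical, and most of their differences lay at the end, which encodes the mature hormone. The last 75 coding bases before the stop codon, read from the GENCODE M21 transcripts (GRCm38), had 14 substitutions, shown in capitals.
Hamp, chr7:30942480-30942554, minus strand: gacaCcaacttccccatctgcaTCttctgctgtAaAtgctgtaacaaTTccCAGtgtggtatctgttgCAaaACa
Hamp2, chr7:30922511-30922585, minus strand: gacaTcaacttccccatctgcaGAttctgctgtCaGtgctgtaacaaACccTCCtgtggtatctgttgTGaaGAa
Of all 50-base windows of the Hamp messenger RNA, 16.6% also occurred in Hamp2, and 15.5% the other way round, so reads from those stretches could have been given to either gene by the authors' counting. Values of both genes are uncertain to that extent.

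Hamp stood at 5.33, 7.46, 6.79, 4.26 and 2.65 log2 CPM in the 10-week STAM livers, against 7.08, 9.52, 9.49, 8.85 and 8.55 log2 CPM in their controls. All STAM livers but one lay below the lowest control, and the groups overlapped only there, since STAM replicate 2 exceeded control replicate 1. The lowest STAM liver held 147 Hamp reads and the highest 3878, against 2044 to 15071 in controls. The mean was 5.30 ± 1.94 log2 CPM in STAM livers and 8.69 ± 1.0 log2 CPM in control livers (SD, n = 5 each). Hamp fell by 3.40 on the log2 scale (95% interval -5.59 to -1.20, limma adjusted p = 0.0186). In the authors' deposited table the log2 fold change was -2.78 with an adjusted p of 5.86e-05. Relative to albumin, a hepatocyte transcript that also fell, the Hamp level was -12.8 to -7.26 on the log2 scale in STAM livers and -8.63 to -6.67 in control livers.

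Hamp2 stood at 0.55, 1.61, 1.91, 0.20 and -1.90 log2 CPM in the 10-week STAM livers, against 3.01, 5.27, 4.35, 4.85 and 5.34 log2 CPM in their controls. Every STAM liver was below every control, with 6 to 72 reads against 122 to 796. Hamp2 fell by 4.09 on the log2 scale (95% interval -5.81 to -2.36, limma adjusted p = 0.00221). The same STAM liver, replicate 5, was lowest for both hepcidin transcripts. The mean fell to 0.48 ± 1.51 log2 CPM in STAM livers, against 4.56 ± 0.95 in control livers (SD, n = 5 each). Both calls held in all 17 alternative settings tried, with Hamp between -3.94 and -2.74 and Hamp2 between -4.48 and -3.49.

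At 4 weeks Hamp stood at 6.64, 7.95, 6.12, 4.86 and 5.83 log2 CPM in STAM livers and at 4.76, 7.88, 7.48, 4.46 and 5.45 log2 CPM in control livers. Replicates 2 and 3 of the controls were high and the other 3 low, and the groups overlapped over most of their range. The log2 fold change was 0.27, with a 95% interval of -1.62 to 2.17 (limma adjusted p = 0.89). Hamp2 stood at 6.34, 7.04, 5.37, 3.67 and 5.11 log2 CPM in the same STAM livers, against 6.45, 8.90, 9.0, 7.22 and 8.06 log2 CPM in controls. Only STAM replicate 2 lay above a control, replicate 1, and every other STAM liver lay below every control. The log2 fold change of Hamp2 was -2.42 (95% interval -4.07 to -0.77), and it did not pass the test (limma adjusted p = 0.0735). Without control replicate 1 it was -2.79 and passed (limma adjusted p = 0.0460, range over 17 alternatives 0.0460 to 0.148). In the authors' deposited table it was -2.31 with an adjusted p of 0.00017. When the reads of both genes were summed, the log2 fold change was -1.34 (limma adjusted p = 0.307).

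**Figure D2:**
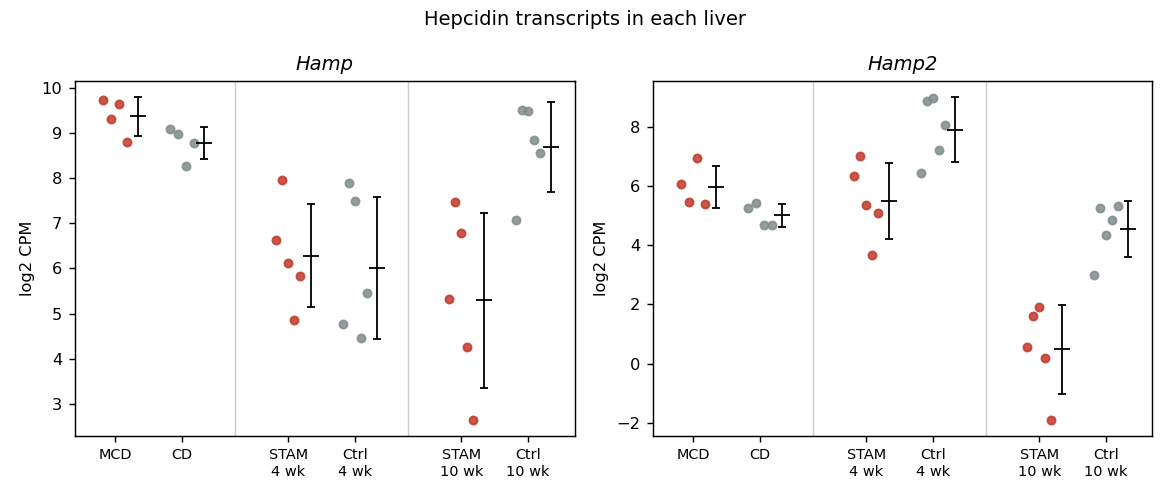
Hamp and Hamp2 in each liver, in log2 CPM on the vertical axes (each gene with its own range), with the mean and SD beside the points; red marks MCD and STAM livers, grey their controls, and grey lines separate tables that were scaled apart. Hamp2 of 10-week STAM livers lies between -1.90 and 1.91, below all controls at 3.01 to 5.34.

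The balance between the 2 hepcidin transcripts differed between the 4-week groups without overlap. Hamp made up 55.1%, 65.3%, 62.8%, 69.5% and 62.4% of the reads of both genes in 4-week STAM livers, against 23.7%, 33.0%, 25.9%, 12.9% and 14.1% in their controls. This ratio was looked at after the values of both genes were known and is given with no test. At 10 weeks Hamp was the main transcript in both groups, with 94.4% to 98.3% in STAM livers and 90.3% to 97.2% in control livers. In the diet study its share was 86.6% to 93.5% in MCD livers and 92.0% to 94.4% in CD livers.

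**Figure D3:**
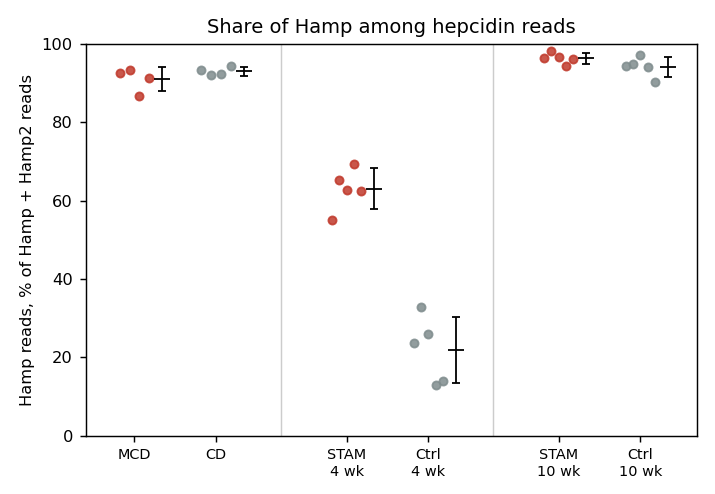
Hamp reads as a percent of the reads of Hamp and Hamp2 together in each liver, with the mean and SD beside the points; red marks MCD and STAM livers and grey their controls. The 4-week groups are the ones with no overlap, at 55.1% to 69.5% in STAM and 12.9% to 33.0% in control livers.

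In the diet study Hamp stood at 9.72, 9.30, 9.64 and 8.79 log2 CPM in MCD livers and at 9.09, 8.96, 8.27 and 8.77 log2 CPM in CD livers. MCD livers tended to be the higher ones, with MCD replicate 4 inside the range of CD livers. The log2 fold change was 0.59 (95% interval 0.10 to 1.08) and missed the threshold by little (limma adjusted p = 0.0505). It passed in 8 of 15 alternatives, whose estimates ran from 0.42 to 1.16 and whose limma adjusted p ran from 0.000841 to 0.128, and in the authors' deposited table (log2 fold change 0.60, adjusted p 0.0136). Hamp2 stood at 6.07, 5.46, 6.95 and 5.41 log2 CPM in MCD livers, against 5.25, 5.45, 4.69 and 4.70 log2 CPM in CD livers. Its log2 fold change of 0.95 did not pass either (95% interval 0.14 to 1.76, limma adjusted p = 0.0602), although in the authors' deposited table it was 1.05 with an adjusted p of 0.00132. It passed in 4 of 15 alternatives (0.62 to 1.37, limma adjusted p 0.00533 to 0.156), and the lowest estimate came without MCD replicate 3.

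Bmp6 (NM_007556, chromosome 13, 38345716 to 38499728), the ligand that liver endothelial cells release when iron is plentiful, did not pass the test in any of the 3 comparisons with the authors' scaling and all libraries. It stood at 2.93, 2.79, 3.20 and 3.22 log2 CPM in MCD livers and at 2.68, 3.09, 2.67 and 2.94 log2 CPM in CD livers, which overlapped (log2 fold change 0.19, 95% interval -0.16 to 0.53, limma adjusted p = 0.36). Of 15 alternatives it passed in 1, scaling by total reads (0.61, limma adjusted p = 0.00613, range 0.00613 to 0.847). At 4 weeks it stood at 1.59, 1.71, 1.35, 1.60 and 1.60 log2 CPM in STAM livers, against 2.47, 2.02, 2.83, 1.60 and 2.03 log2 CPM in controls. STAM livers lay close together below all controls but replicate 4. The log2 fold change was -0.62 (95% interval -1.07 to -0.18, limma adjusted p = 0.0785). Without control replicate 4 it passed (-0.77, limma adjusted p = 0.0276, range over 16 alternatives 0.0276 to 0.157), and the authors' deposited table has an adjusted p of 0.0449. It passed in 2 of these 16, the other being quantile normalization. At 10 weeks Bmp6 stood at 1.85, 2.13, 2.05, 2.30 and 1.99 log2 CPM in STAM livers and at 1.58, 2.65, 2.61, 2.41 and 2.60 log2 CPM in controls. Control replicate 1 was the lowest of all 10 livers, and without it the log2 fold change was -0.50 and passed (limma adjusted p = 0.00590), against -0.31 with it (limma adjusted p = 0.209, range over 17 alternatives 0.00590 to 0.957). Over these 17 the estimate ran from -0.66 to -0.02, and 2 passed. Beside these values, sinusoidal endothelial markers fell for 4 of 8 genes in MCD livers and for 4 of 8 in 4-week STAM livers. Their summed level was 341 to 398 CPM in MCD and 412 to 433 CPM in CD livers. It was 362 to 434 CPM in 4-week STAM and 452 to 526 CPM in 4-week control livers, and whether this bears on Bmp6 was not tested. With total-read scaling 2 of the 8 rose and 0 fell in MCD livers, and with quantile normalization 1 rose and 3 fell, so their direction there depends on the scaling. At 10 weeks 1 of the 8 rose and 2 fell (2 and 0 scaled by total reads, 2 and 1 with quantile normalization), with sums of 406 to 513 CPM in STAM and 368 to 536 CPM in control livers.

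Id1 (NM_010495, chromosome 2, 152736251 to 152737410) encodes an inhibitor of helix-loop-helix factors and is a direct target of BMP-activated SMADs. It stood at 3.78, 3.32, 3.15 and 3.63 log2 CPM in MCD livers, against 1.73, 1.51, 1.29 and 0.57 log2 CPM in CD livers. Every MCD liver was above every CD liver, with 199 to 394 reads against 22 to 65. Id1 rose by 2.20 on the log2 scale (95% interval 1.67 to 2.72, limma adjusted p = 1.85e-05) and passed in all 15 alternatives. At 4 weeks Id1 was at 1.93 to 2.66 log2 CPM in STAM livers and at 1.46 to 2.69 in controls (log2 fold change 0.34, limma adjusted p = 0.399). At 10 weeks it was at 1.26 to 2.64 log2 CPM in STAM livers and at 1.03 to 2.57 in controls (log2 fold change -0.21, 95% interval -0.93 to 0.51, limma adjusted p = 0.632).

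Smad7 (NM_001042660, chromosome 18, 75367365 to 75395934) encodes an inhibitory SMAD that is induced by the signal it dampens. It stood at 4.00, 3.47, 3.60 and 3.78 log2 CPM in MCD livers, against 3.22, 2.83, 2.98 and 2.12 log2 CPM in CD livers. The groups did not overlap, and Smad7 rose by 0.92 on the log2 scale (95% interval 0.46 to 1.39, limma adjusted p = 0.00408), also in all 15 alternatives. At 4 weeks it stood at 2.78 to 3.18 log2 CPM in STAM livers and at 2.78 to 3.43 in controls (log2 fold change -0.10, limma adjusted p = 0.751). At 10 weeks it stood at 2.70, 3.22, 3.03, 2.97 and 3.19 log2 CPM in STAM livers and at 2.54, 4.03, 3.83, 3.41 and 3.25 log2 CPM in controls. Control replicate 1 was again the lowest, below every STAM liver, while the other 4 controls were above every STAM liver. The log2 fold change was -0.39 (limma adjusted p = 0.19), and -0.61 without that control, where it passed (limma adjusted p = 0.00775, range over 17 alternatives 0.00775 to 0.762).

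The other listed targets of BMP-activated SMADs did not share 1 direction. In MCD livers 2 of 7 listed targets rose, the receptor-regulated Smad9 by 1.31 (limma adjusted p = 0.000224) and the transcription factor Atoh8, which takes part in hepcidin control, by 0.89 (limma adjusted p = 0.023). The median log2 fold change of the list was 0.36, against 0.07 over all genes. With total-read scaling 5 of 7 rose, and the median was 0.78, against 0.49 over all genes. With quantile normalization 2 of 7 rose, and the median was -0.05, against -0.002 over all genes. In 10-week STAM livers 3 of 7 fell and 1 rose. Id3 fell by 1.17 (limma adjusted p = 0.0028), Id2 by 1.10 (limma adjusted p = 2e-05) and Atoh8 by 0.87 (limma adjusted p = 0.0151), while Smad9 rose by 0.46 (limma adjusted p = 0.0341). Scaled by total reads, Atoh8 was at -0.58 and did not pass (limma adjusted p = 0.0859), nor did Smad9 without control replicate 1 (0.39, limma adjusted p = 0.0804). With quantile normalization 6 of 7 fell and 1 rose. The median of the list at 10 weeks was -0.21, against 0.05 over all genes. In 4-week STAM livers 0 of 7 were called by limma or by limma-voom, with 1 at an unadjusted p under 0.05. Smad6, a further inhibitory SMAD of the list, passed in none of the 3 comparisons with the authors' scaling, but with quantile normalization passed as lower in 4-week (-0.68, limma adjusted p = 0.0437) and 10-week STAM livers (-0.56, limma adjusted p = 0.0178).

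**Figure D4:**
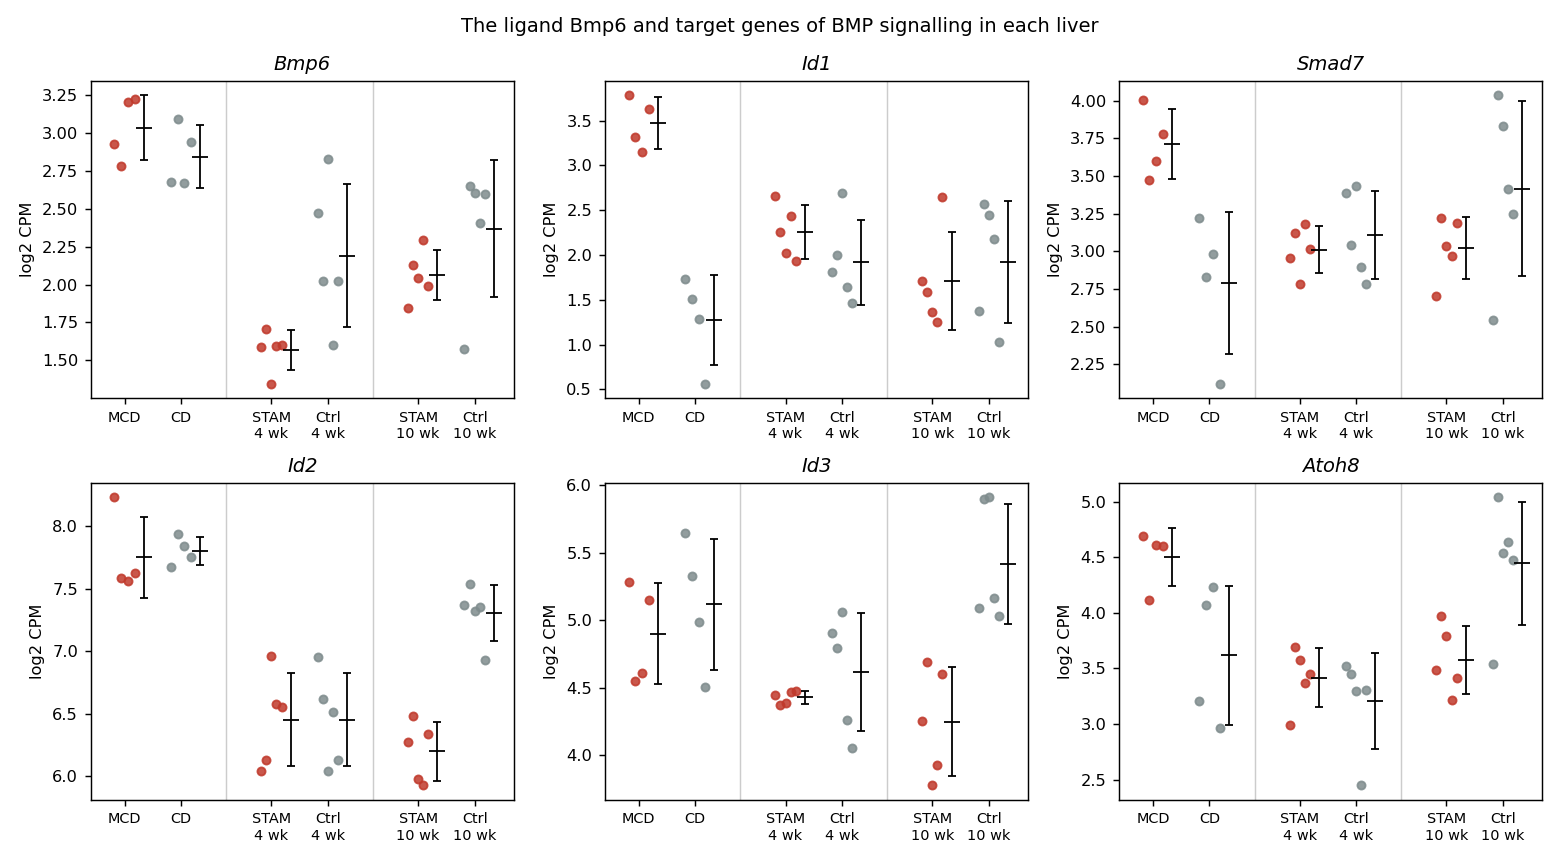
Bmp6 and the BMP target genes Id1, Smad7, Id2, Id3 and Atoh8 in each liver, in log2 CPM (each gene with its own range), with the mean and SD beside the points; red marks MCD and STAM livers and grey their controls. Id1 of MCD livers lies at 3.15 to 3.78, above CD livers at 0.57 to 1.73, and Id2 of 10-week STAM livers at 5.93 to 6.48, below their controls at 6.93 to 7.54.

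Of 16 genes for BMP ligands, receptors and regulators of the hepcidin signal, 6 fell and 2 rose in MCD livers, with a median log2 fold change of -0.16. Tmprss6, the protease that restrains hepcidin by cutting hemojuvelin, fell by 0.80 (limma adjusted p = 0.000215), and with quantile normalization it was at -0.30 and did not pass (limma adjusted p = 0.0792). Hemojuvelin itself, the BMP co-receptor listed as Hfe2, fell by 0.29 (limma adjusted p = 0.0378), but was at 0.14 with total-read scaling. Hfe, whose loss causes haemochromatosis, rose by 0.48 (limma adjusted p = 0.00114). Inhbb, a subunit of activin B, rose by 1.46 in MCD livers (limma adjusted p = 0.00156) and by 2.30 in 10-week STAM livers (limma adjusted p = 0.000136). At 10 weeks 4 of 15 tested genes of this list fell and 1 rose, among them Acvr2a, an activin and BMP receptor, by 0.55 (limma adjusted p = 0.000121). Tmprss6 fell by 0.31 at 10 weeks (limma adjusted p = 0.00631) and was at -0.02 with total-read scaling. At 4 weeks 3 of 16 fell, the type 1 receptor Acvr1 by 0.42 (limma adjusted p = 0.00618), Acvr2a by 0.35 (limma adjusted p = 0.0414) and the signal carrier Smad5 by 0.29 (limma adjusted p = 0.0179). With total-read scaling Acvr2a (-0.27, limma adjusted p = 0.0958) and Smad5 (-0.21, limma adjusted p = 0.0672) did not pass at 4 weeks. Bmp2, the other endothelial ligand of this pathway, passed in none of the 3 comparisons with the authors' scaling and all libraries. Scaled by total reads it passed as higher in MCD livers (0.51, limma adjusted p = 0.00682). Without control replicate 1 it passed as lower at 10 weeks (-0.56, limma adjusted p = 0.0423).

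With total-read scaling the counts of this list were 5 higher and 1 lower in MCD and 4 higher and 1 lower in 10-week STAM livers, and with quantile normalization 2 higher and 3 lower, and 3 higher and 3 lower. Its direction as a list is therefore set by the scaling. Without 10-week control replicate 1, 7 fell and 1 rose.

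Of 8 genes of the interleukin 6 and STAT3 input, 2 fell in MCD livers, Fgb, a fibrinogen chain, by 1.29 (limma adjusted p = 1.66e-05) and Stat3 by 0.58 (limma adjusted p = 0.0208), and neither passed with quantile normalization. At 4 weeks Saa1, an acute-phase protein, rose by 2.39 in STAM livers (limma adjusted p = 1.4e-06), with 5.78 to 6.35 log2 CPM against 3.35 to 4.04 in controls. Socs3, a feedback inhibitor of STAT3, fell by 0.71 (limma adjusted p = 0.0452) and Fgb by 0.39 (limma adjusted p = 0.0213). Socs3 did not pass without control replicate 1 (-0.64, limma adjusted p = 0.0751) or with total-read scaling (-0.63, limma adjusted p = 0.0662). At 10 weeks only Fgb of this list passed with the authors' scaling, falling by 0.83 (limma adjusted p = 0.00201). Scaled by total reads 2 rose and 1 fell in MCD as in 10-week STAM livers, and with quantile normalization 2 rose and 1 fell at 10 weeks. Saa1 was at 7.07, 7.09, 6.65, 6.81 and 5.60 log2 CPM in 10-week STAM livers and at 12.07, 4.82, 8.23, 8.07 and 6.10 log2 CPM in controls. The control at 12.07, replicate 1, was also the control with the least Hamp.

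Tfrc (NM_011638, chromosome 16, 32608896 to 32632794), the receptor by which cells take up transferrin-bound iron, carries iron-responsive elements behind its coding sequence, where bound regulatory proteins keep its messenger RNA from decay. Fth1 and Ftl1, the ferritin chains that store iron, and Slc40a1 carry one before the coding sequence, where it governs translation and not the amount of messenger RNA. The elements are printed because they separate the genes whose messenger RNA level follows cell iron from those whose translation does. GENCODE M21 messenger RNAs were searched on the sense strand for a bulged C, 5 bases, the loop CAGTGN and 5 bases that pair with the first 5 (G with T counted). The matches are listed with the loop in capitals.
Fth1, chr19:9982738-9982754, plus strand: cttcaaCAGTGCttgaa
Ftl1, chr7:45459785-45459801, minus strand: cttcaaCAGTGTttgaa
Slc40a1, chr1:45925471-45925487, minus strand: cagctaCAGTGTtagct
Tfrc element 1, chr16:32631225-32631241, plus strand: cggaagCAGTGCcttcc
Tfrc element 2, chr16:32631604-32631620, plus strand: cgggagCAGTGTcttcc
Tfrc element 3, chr16:32631669-32631685, plus strand: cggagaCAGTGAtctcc
Tfrc element 4, chr16:32631716-32631732, plus strand: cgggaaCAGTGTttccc
By the same rule 0.096% of 21870 genes had a match before and 0.508% a match behind the coding sequence. The other 7 of the 10 genes had none.

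Tfrc stood at 5.31, 5.21, 4.73, 5.94 and 5.89 log2 CPM in 10-week STAM livers, against 6.20, 6.65, 6.71, 6.75 and 6.96 log2 CPM in controls. All STAM livers were below all controls, and Tfrc fell by 1.24 on the log2 scale, 2.36-fold (95% interval -1.76 to -0.71, limma adjusted p = 0.00179). The call held in all 17 alternatives, between -1.37 and -0.95. At 4 weeks it stood at 6.51, 7.35, 6.76, 6.79 and 5.88 log2 CPM in STAM livers and at 5.99, 5.24, 6.56, 6.89 and 7.20 log2 CPM in controls, with full overlap (log2 fold change 0.28, 95% interval -0.63 to 1.19, limma adjusted p = 0.748). In MCD livers it stood at 6.75, 6.47, 6.54 and 6.12 log2 CPM, against 6.28, 5.55, 6.06 and 6.64 in CD livers (log2 fold change 0.33, limma adjusted p = 0.223). Over 15 alternatives it ran from 0.14 to 0.76 and passed in 2, total-read scaling and without CD replicate 4 (limma adjusted p 0.00741 to 0.537). Relative to Fth1 in the same liver, Tfrc was at -5.54 to -4.35 on the log2 scale in 10-week STAM livers and at -3.90 to -3.33 in their controls.

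Tfr2 (NM_015799, chromosome 5, 137569840 to 137588081) is the hepatocyte receptor that senses iron-loaded transferrin and feeds the hepcidin signal. In MCD livers it stood at 6.67, 6.64, 7.0 and 7.01 log2 CPM, against 8.11, 8.29, 8.15 and 8.10 log2 CPM in CD livers. The groups were far apart, and Tfr2 fell by 1.33 (95% interval -1.57 to -1.09, limma adjusted p = 1.73e-06), in all 15 alternatives. At 10 weeks it stood at 8.44, 8.14, 8.41, 8.19 and 7.91 log2 CPM in STAM livers and at 8.92, 8.44, 8.70, 8.59 and 8.63 log2 CPM in controls. The highest STAM liver and the lowest control nearly touched. Tfr2 fell by 0.44 (95% interval -0.68 to -0.20, limma adjusted p = 0.00582), a call that held in 15 of 17 alternatives. It was lost when libraries were scaled by total reads (-0.15, limma adjusted p = 0.203) and under quantile normalization (-0.20, limma adjusted p = 0.0898). At 4 weeks it stood at 7.99 to 8.39 log2 CPM in STAM livers and at 8.07 to 8.55 in controls (log2 fold change -0.13, limma adjusted p = 0.51).

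Trf (NM_133977, chromosome 9, 103208876 to 103230286) encodes transferrin, the iron carrier of plasma that hepatocytes secrete, and had the highest log2 CPM per kilobase of the 10 genes. At 10 weeks it stood at 13.10, 12.92, 13.06, 13.12 and 13.24 log2 CPM in STAM livers, against 14.16, 13.55, 13.80, 13.79 and 13.76 log2 CPM in controls. The groups did not overlap. Trf fell by 0.72 (95% interval -1.01 to -0.44, limma adjusted p = 0.000655), and with quantile normalization it was at -0.27 and did not pass (limma adjusted p = 0.0533, the highest of 17 alternatives). Alb, a secreted hepatocyte protein like transferrin, fell by 0.96 in the same livers (limma adjusted p = 0.000648). At 4 weeks Trf stood at 13.86 to 13.95 log2 CPM in STAM livers and at 13.83 to 14.12 in controls (log2 fold change -0.07, limma adjusted p = 0.66). In MCD livers it stood at 13.60, 13.26, 13.60 and 13.35 log2 CPM and in CD livers at 13.64, 13.70, 13.60 and 13.72. That log2 fold change was -0.21 (limma adjusted p = 0.195), but 0.21 with total-read scaling and 0.47 with quantile normalization, where it passed as higher (limma adjusted p = 0.0121, range over 15 alternatives 0.0121 to 0.43). Of 50-base windows of the Trf messenger RNA, 79.8% also occur in Gm20425, an overlapping gene model with no row in these tables. Whether the authors' counting used that model is not given, so any bearing on the Trf level is not known.

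Slc40a1 (NM_016917, chromosome 1, 45908070 to 45925594), which encodes the exporter ferroportin, passed in none of the 3 comparisons with the authors' scaling and all libraries. It stood at 8.32, 8.37, 8.56 and 8.60 log2 CPM in MCD livers and at 8.04, 8.01, 8.37 and 8.46 log2 CPM in CD livers (log2 fold change 0.24, 95% interval -0.03 to 0.51, limma adjusted p = 0.133). Over 15 alternatives it ran from 0.17 to 0.75 and passed in 2, total-read scaling and quantile normalization (limma adjusted p 0.000510 to 0.322). At 4 weeks it stood at 7.86 to 8.32 log2 CPM in STAM livers and at 7.94 to 8.97 in controls (log2 fold change -0.22, limma adjusted p = 0.458). At 10 weeks it stood at 7.67, 7.82, 7.64, 7.45 and 7.62 log2 CPM in STAM livers and at 7.39, 7.91, 8.11, 7.78 and 7.95 log2 CPM in controls (log2 fold change -0.19, limma adjusted p = 0.207). Control replicate 1 was the lowest of these livers, and without it Slc40a1 was at -0.30 and passed (limma adjusted p = 0.0132, range over 17 alternatives 0.0132 to 0.749). With total-read scaling the 10-week value was 0.11, so its direction is set by the scaling.

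Fth1 (NM_010239, chromosome 19, 9982646 to 9985111) encodes the ferritin heavy chain, which oxidises iron for storage. It stood at 10.23 to 10.35 log2 CPM in 10-week STAM livers and at 10.10 to 10.37 in controls, a log2 fold change of 0.02 with a 95% interval of -0.15 to 0.20 (limma adjusted p = 0.821). At 4 weeks it stood at 10.10 to 10.24 log2 CPM in STAM livers and at 9.64 to 10.30 in controls (log2 fold change 0.20, limma adjusted p = 0.3). In MCD livers it stood at 10.50, 10.50, 10.50 and 10.37 log2 CPM, against 10.01, 10.18, 10.51 and 10.20 in CD livers (log2 fold change 0.24, 95% interval -0.02 to 0.50, limma adjusted p = 0.118). With total-read scaling Fth1 passed as higher in MCD (0.67, limma adjusted p = 0.000279, range over 15 alternatives 2.03e-05 to 0.281) and in 10-week STAM livers (0.32, limma adjusted p = 0.00717, range over 17 alternatives 0.00717 to 0.966). This was not the only such setting. In MCD livers Fth1 passed in 3 of the 15 alternatives, with estimates between 0.17 and 0.97. At 10 weeks it passed in 2 of the 17, with estimates between -0.01 and 0.38. Of 50-base windows of its messenger RNA, 4.01% also occur in the gene model Gm6977. The ferritin light chain Ftl1 passed in none of the 3 comparisons with the authors' scaling, with 11.12 to 11.55 log2 CPM in 10-week STAM and 11.05 to 11.29 in control livers (log2 fold change 0.13, limma adjusted p = 0.355). With total-read scaling it passed as higher in MCD (0.58, limma adjusted p = 0.019) and in 10-week STAM livers (0.42, limma adjusted p = 0.00283), and with quantile normalization likewise (1.02 in MCD, limma adjusted p = 0.00157, and 0.53 at 10 weeks, limma adjusted p = 0.00126).

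**Figure D5:**
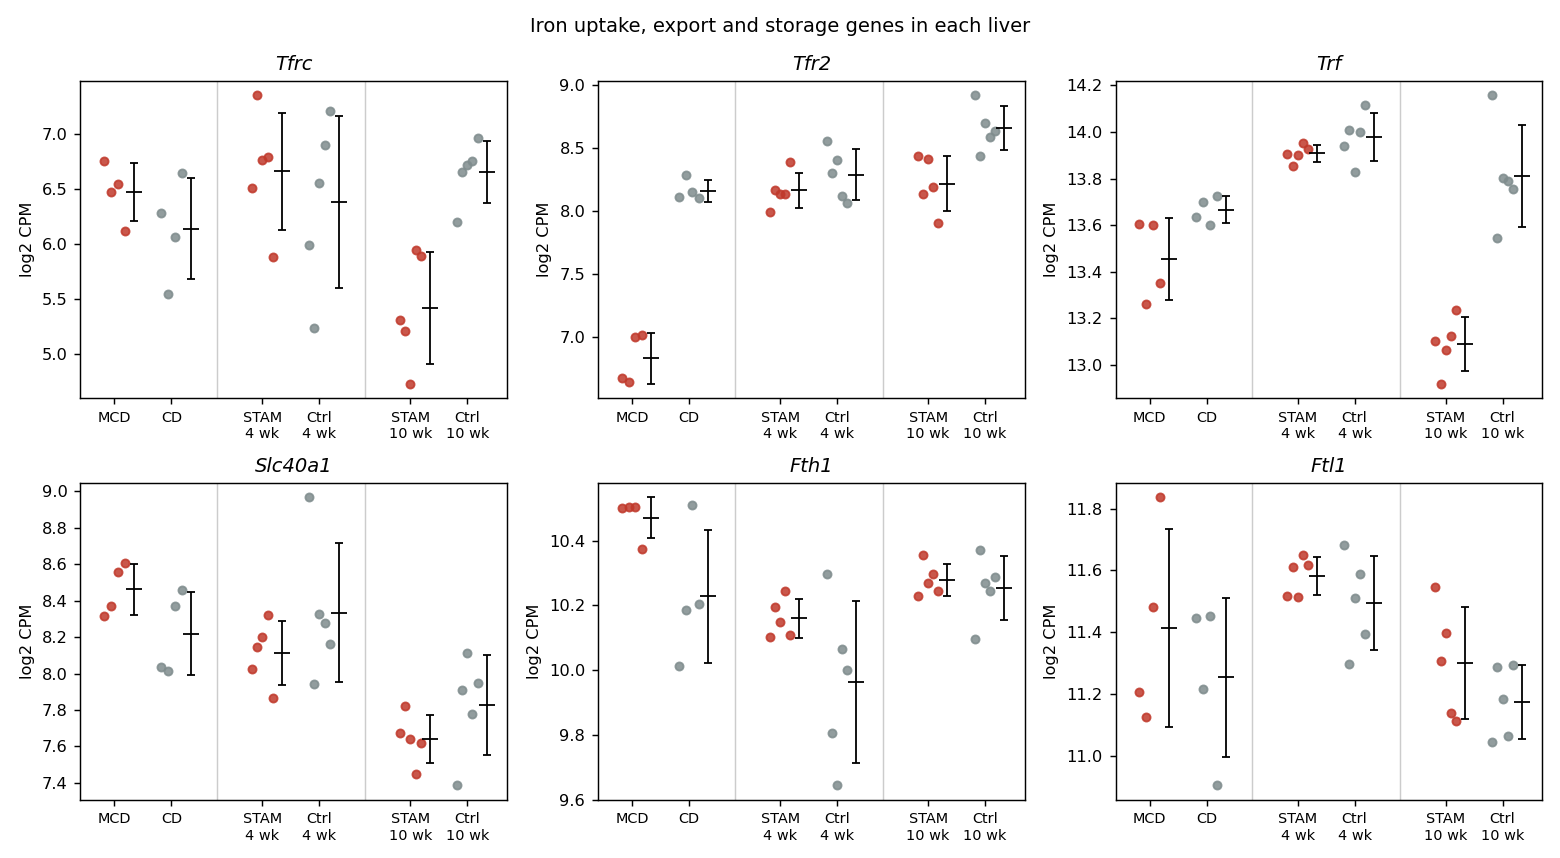
The uptake genes Tfrc, Tfr2 and Trf, the exporter Slc40a1 and the ferritin chains Fth1 and Ftl1 in each liver, in log2 CPM (each gene with its own range), with the mean and SD beside the points; red marks MCD and STAM livers and grey their controls. Tfr2 of MCD livers lies at 6.64 to 7.01, below CD livers at 8.10 to 8.29, and Tfrc of 10-week STAM livers at 4.73 to 5.94, below controls at 6.20 to 6.96.

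Per kilobase of transcript, the level of the 10 genes in CD livers ran from Trf (12.44 ± 0.06) over Fth1 (10.31 ± 0.21) and Hamp (10.12 ± 0.36) to Slc40a1 (6.46 ± 0.23), Tfr2 (6.34 ± 0.09) and Hamp2 (6.22 ± 0.39), all in log2 CPM per kilobase (SD, n = 4). Tfrc (3.84 ± 0.46), Bmp6 (1.58 ± 0.21), Id1 (1.37 ± 0.51) and Smad7 (0.64 ± 0.47) followed on the same scale. Neighbours in this order differed by less than their spread for Fth1 and Hamp, for Slc40a1, Tfr2 and Hamp2, and for Bmp6 and Id1. In 10-week STAM livers Hamp lay at 6.64 ± 1.94 and Hamp2 at 1.67 ± 1.51, against 10.04 ± 1.0 and 5.76 ± 0.95 in their controls (log2 CPM per kilobase, SD, n = 5 each). Hamp then lay near Tfr2 (6.40 ± 0.22 in the same STAM livers) and not near Fth1 (10.36 ± 0.05). In 4-week control livers Hamp2 (9.12 ± 1.10) lay above Hamp (7.35 ± 1.58) on this scale, and in 4-week STAM livers Hamp2 (6.70 ± 1.28) and Hamp (7.62 ± 1.14) differed by less than their spread (SD, n = 5 each).

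Groups that did not overlap were found for 3 of 10 genes in MCD against CD livers (Id1, Smad7, Tfr2), where 40.1% of all tested genes did not overlap. At 10 weeks there were 4 of 10 (Hamp2, Tfrc, Tfr2, Trf), where 33.1% of all genes did not overlap. At 4 weeks there were 0 of 10, where 10.1% of all genes did not overlap, and by the test at 4 weeks 0 were called by limma and 2 had an unadjusted p under 0.05.

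Iron and haem uptake was further covered by 12 genes. In MCD livers 5 fell and 2 rose, with the metalloreductase Steap2 at 2.10 (limma adjusted p = 0.000177) and the haem transporter Slc48a1 at 0.65 (limma adjusted p = 0.00125). Slc39a14, which takes up iron not bound to transferrin, fell by 0.37 (limma adjusted p = 0.0441) but was at 0.06 with total-read scaling. At 4 weeks 4 rose and 2 fell in STAM livers, among them Hpx, the haem-binding hemopexin, at 0.69 (limma adjusted p = 0.000601) and Scara5, a ferritin receptor, at 2.96 (limma adjusted p = 0.00729). Steap2 fell by 0.76 at 4 weeks (limma adjusted p = 0.00305) and by 0.58 at 10 weeks (limma adjusted p = 0.0188). At 10 weeks 4 fell and 1 rose. Cd163, the macrophage receptor for haemoglobin bound to haptoglobin, fell by 1.70 (limma adjusted p = 0.00114), and Slc11a2, which carries iron out of endosomes, by 0.67 (limma adjusted p = 7.4e-06). With total-read scaling 0 of 12 fell in MCD livers and 3 rose, and Steap2 did not pass at 10 weeks (-0.29, limma adjusted p = 0.243). With quantile normalization 4 rose and 3 fell in MCD livers.

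Among 5 genes of iron oxidation and haem breakdown, Hmox1, which degrades haem, rose by 1.29 in MCD livers (limma adjusted p = 0.00794), with 5.61, 5.73, 5.87 and 6.73 log2 CPM against 5.04, 4.28, 5.23 and 4.26 in CD livers. The ferroxidase ceruloplasmin (Cp) fell by 0.48 in MCD livers (limma adjusted p = 0.00487) and by 0.57 in 10-week STAM livers (limma adjusted p = 0.00175). It was at 0.23 with quantile normalization in MCD livers, and did not pass at 10 weeks with total-read scaling (-0.28, limma adjusted p = 0.0546). The related ferroxidase Heph rose by 0.55 in MCD livers (limma adjusted p = 0.0365) and by 0.90 in 10-week STAM livers (limma adjusted p = 0.00916), but with quantile normalization was at 0.06 and 0.37 and passed in neither. In MCD livers 2 of the 5 rose and 2 fell, and in 10-week STAM livers 1 rose and 1 fell. With total-read scaling 3 rose and 0 fell in MCD as in 10-week STAM livers. With quantile normalization 1 rose and 1 fell in MCD livers, and in 10-week STAM livers neither direction held a call. At 4 weeks 0 of 5 were called by limma or by limma-voom, with 1 at an unadjusted p under 0.05.

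Of 7 genes for iron storage and the iron regulatory proteins, the regulatory proteins Ireb2 and Aco1 fell in MCD livers by 0.71 (limma adjusted p = 0.000485) and 0.57 (limma adjusted p = 0.000721). Aco1 also fell at 10 weeks, by 0.46 (limma adjusted p = 0.000228), and Ireb2 at 4 weeks, by 0.40 (limma adjusted p = 0.0187). In all, 2 fell and 1 rose in MCD livers, 1 fell in 4-week and 2 fell in 10-week STAM livers. Aco1 did not pass in MCD livers with total-read scaling (-0.14, limma adjusted p = 0.211). With that scaling 4 of the 7 rose and 1 fell in MCD livers and 3 rose and 1 fell in 10-week STAM livers, so the direction of this list is set by the scaling. With quantile normalization 3 rose and 1 fell in MCD and 1 rose and 1 fell in 10-week STAM livers.

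Haem synthesis, a main use of iron, was covered by 8 genes, of which 3 fell in MCD livers, led by Ppox at -0.80 (limma adjusted p = 0.000325). At 10 weeks 4 fell and 1 rose in STAM livers. Alas1, the rate-limiting first enzyme, rose by 1.03 (limma adjusted p = 0.0125), and Alad, the next enzyme, fell by 1.01 (limma adjusted p = 1.55e-06). With total-read scaling 2 of the 8 rose and 1 fell in MCD as in 10-week STAM livers. With quantile normalization 0 rose and 2 fell in MCD and 1 rose and 1 fell in 10-week STAM livers. At 4 weeks only Fech, which inserts iron, passed, falling by 0.30 (limma adjusted p = 0.0193), and it was at -0.22 with total-read scaling and did not pass (limma adjusted p = 0.0527). Of 10 genes for mitochondrial iron and iron-sulfur clusters, 4 fell in MCD livers and 3 fell and 2 rose in 10-week STAM livers, with Slc25a37, which brings iron into mitochondria, at -0.43 (limma adjusted p = 0.0385) in MCD and -0.53 (limma adjusted p = 0.000168) in 10-week STAM livers. With total-read scaling 4 of the 10 rose and 0 fell in MCD livers, with Slc25a37 at -0.01, and 6 rose and 1 fell in 10-week STAM livers. At 4 weeks 0 of 10 were called by limma or by limma-voom, with 4 at an unadjusted p under 0.05.

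The 6 red cell markers in the tables summed to 51.8 to 77.2 CPM in MCD livers against 239 to 320 CPM in CD livers. Their sum was 37.0 to 64.7 CPM in 4-week STAM against 26.9 to 53.0 CPM in control livers. It was 45.7 to 85.9 CPM in 10-week STAM against 83.0 to 145 CPM in control livers. These sums mostly follow 1 gene, Alas2, with a mean of 60.4 CPM in MCD and 269 CPM in CD livers. At 10 weeks its mean was 70.0 CPM in STAM and 119 CPM in control livers. In MCD livers 1 of 5 tested red cell genes, Alas2, was called lower and 0 were called higher. Slc4a1, the anion exchanger of red cells, had 0 to 4 reads per library in the diet study, 6 to 20 reads in 4-week STAM and 6 to 47 in 4-week control livers, and 6 to 62 reads in 10-week STAM livers against 1 to 3 in their controls. At 10 weeks 4 of 6 listed red cell genes rose in STAM livers and Alas2, the red cell form of the first haem enzyme, fell by 0.78 (limma adjusted p = 0.0113). With quantile normalization 2 of the 6 rose and 1 fell at 10 weeks. Without 10-week control replicate 1, 3 rose and 1 fell. Alas2 fell by 2.16 in MCD livers (limma adjusted p = 2.85e-07), with 5.94, 5.68, 6.26 and 5.71 log2 CPM against 7.90, 7.91, 8.32 and 8.12 in CD livers. Whether blood in the tissue bears on the iron genes was not tested.

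The MCD and 10-week STAM comparisons share no library, and the difference between their effects was tested directly over 14986 genes, of which 27.9% were called. Of the 10 genes, 7 were called. The MCD effect exceeded the 10-week STAM effect by 3.99 for Hamp (95% interval 1.60 to 6.37, limma adjusted p = 0.0153) and by 5.04 for Hamp2 (95% interval 3.0 to 7.07, limma adjusted p = 0.00117). It exceeded it by 2.4 for Id1 (limma adjusted p = 0.000661), by 1.32 for Smad7 (limma adjusted p = 0.00829) and by 1.57 for Tfrc (limma adjusted p = 0.00302). For Tfr2 the difference was -0.89 (limma adjusted p = 0.000366), since it fell further in MCD livers. The 6 of these calls just named held in every one of 24 or 25 alternatives. The seventh, Trf at 0.51 (limma adjusted p = 0.0342), held in 18 of 25, with adjusted p between 0.00172 and 0.0852.

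Against the 4-week STAM effect, over 14962 genes of which 26.1% were called, 5 of the 10 differed. The MCD effect exceeded the 4-week STAM effect by 3.37 for Hamp2 (95% interval 1.44 to 5.30, limma adjusted p = 0.0122), by 1.86 for Id1 (limma adjusted p = 0.000508), by 1.02 for Smad7 (limma adjusted p = 0.00671) and by 0.81 for Bmp6 (limma adjusted p = 0.0327). For Tfr2 it was -1.21 (limma adjusted p = 8.09e-06). The Bmp6 difference passed in 17 of 24 alternatives and the other 4 in all 25.

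Between the 2 ages of the STAM model, 2 of the 10 effects differed, where 20.0% of 15022 genes were called. Trf had a 10-week effect 0.65 below the 4-week effect (difference -0.65, 95% interval -0.95 to -0.35, limma adjusted p = 0.00331). Tfrc differed by -1.52 (95% interval -2.53 to -0.51, limma adjusted p = 0.0335), a call that held in 14 of 27 alternatives, with adjusted p between 0.0169 and 0.0998. For Hamp the 10-week effect minus the 4-week effect was -3.67, which did not pass (95% interval -6.36 to -0.98, limma adjusted p = 0.0519, 0.0273 to 0.0920 over 27 alternatives). That of Hamp2 was -1.67 (95% interval -3.93 to 0.60, limma adjusted p = 0.296).

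The genes whose log2 CPM followed Hamp most closely were sought by the mean over the 3 tables of the Pearson correlation across the 8, 10 and 10 libraries, among 14847 genes. The closest was Hamp2 (mean r = 0.77), with 0.85 in the diet, 0.52 in the 4-week and 0.96 in the 10-week table. Then came Ccdc137 (0.73), Klhl13 (0.70), Tysnd1 (0.70) and Ndn (0.69). Among the other members the mean r was 0.44 for Smad7, 0.41 for Id1 and 0.36 for Bmp6, at ranks 373, 532 and 804. These correlations describe libraries of 2 groups per table, which share the group difference, and carry no p.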

How the data were processed

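Liver RNA of 28 samples was sequenced from both ends of fragments after poly(A) selection with a stranded kit, per the labels' protocols. STAR 2.4.2a and the mm10 build are named in the submitters' processing notes, while the read counter, annotation release and test of the authors were not given in the sources used here. Per sample, the deposited columns hold log2 CPM, scaled by the authors within each of 3 tables; this was read from the values. With a prior of 0.25 reads removed, 100% of values were whole reads within 0.05. The authors' deposited log2 fold changes and their adjusted p-values are quoted only where named, and the deposited p-values were not used. Since the unit is log2 and not raw counts, no count model was used. limma 3.58.1 (R 4.3.3, statmod 1.5.0) was run within each table with a mean-variance trend and robust variances, keeping genes whose mean level exceeded the 25th percentile, two-sided, with Benjamini-Hochberg adjustment over all genes tested. limma-voom used the recovered reads with TMM factors. A difference between effects was a contrast of 4 groups, on genes that passed both tables' filters. Intervals are 95% intervals. The fit was tested on simulated counts.

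Depth was 16.2 to 25.9 M reads per library, so that 3 reads correspond to at most 0.200 CPM, and low values carry counting error. No replicates agreed within sampling noise (lowest chi-square per degree of freedom 11.9). Alternatives were total-read scaling, quantile normalization, a prior of 2 reads, no filter, a 50th percentile filter, voom, a replicate block, Hamp and Hamp2 summed, and each replicate left out. Replicate numbers showed no sign of pairing samples over all genes: over 14 pairs the correlation of deviations was -0.12 to 0.0082, never above 0.1. Pairing that touches only few genes cannot be seen in this way. The genes, lists and tests were chosen with earlier results of these data known. Beyond the 10 genes, named genes were at most 3 called genes of largest change per list and comparison plus Ftl1, Bmp2, Tmprss6, Hfe2, Hfe, Id3, Smad6, Atoh8, Slc39a14, Cp, Hmox1 and Alas1; Smad9 and Alas2 at 10 weeks, Alb at 10 weeks and Saa1 at 10 weeks were named after their values were seen. Gene positions are those of the tables with 1 added to each start. Sequences came from RefSeq (GRCm38.p6) and GENCODE M21 and were aligned with Biopython 1.88.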

Additional observations from a re-analysis of the deposited data

Results flagged for a closer look

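Each of the 10 genes was screened in every group for a single liver far from the others, and 2 such livers were flagged. Chance gives about 1 flag in 20 sets of gene and group, so 2 flags are not more than chance gives. MCD replicate 4 had the lowest Fth1 of its group, at 10.37 log2 CPM beside 10.50 in each of the other MCD livers. Control replicate 1 at 10 weeks had the lowest Bmp6 of its group, at 1.58 log2 CPM against 2.41 to 2.65 in the other controls. The same library also had the lowest control values of Hamp, Hamp2, Smad7, Tfrc, Slc40a1 and Fth1, and the highest of Tfr2 and Trf.

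The 14 differences between effects of 2 models or ages that passed the limma test, already given above, were also flagged. Between MCD and 10-week STAM effects these were Hamp (3.99), Hamp2 (5.04), Id1 (2.4), Smad7 (1.32), Tfrc (1.57), Tfr2 (-0.89) and Trf (0.51). Between MCD and 4-week STAM effects they were Hamp2 (3.37), Bmp6 (0.81), Id1 (1.86), Smad7 (1.02) and Tfr2 (-1.21). Between 10-week and 4-week STAM effects they were Tfrc (-1.52) and Trf (-0.65). All are on the log2 scale, the first-named effect minus the second. Of all tested genes, 27.9%, 26.1% and 20.0% were called in these comparisons, in that order. The 2 of 10 genes called between ages are not apart from that share. The tables were scaled apart and the 2 models come from separate studies, so model, diet, age and study cannot be told apart.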

How the results depend on the processing

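In all, 1260 values were recomputed for the 10 genes in 6 comparisons, with Hamp and Hamp2 summed set against Hamp. Of these, 48 newly passed with the same sign and 31 no longer passed. In 31 values the sign changed. None of these was called with the authors' scaling and all libraries, and 1 was called after the change: Trf in MCD livers, 0.47 with quantile normalization. Of the 10 genes, 9 were called in MCD livers with total-read scaling and 8 with quantile normalization, against 3, where 57.5% and 40.7% of all genes were called, against 42.7%. In 4-week STAM livers 1, Bmp6, was called with quantile normalization, against 0 (9.34% of all genes, against 9.80%). At 10 weeks Tfr2 was lost with total-read scaling and Fth1 passed as higher, and Tfr2 and Trf were lost with quantile normalization. Of all genes, 52.1% and 41.2% were called at 10 weeks with these scalings, against 47.8%. For the age difference 1 passed with total-read scaling and 0 with quantile normalization, against 2, where 22.9% and 16.1% of all genes were called, against 20.0% (by limma, with 3 at an unadjusted p under 0.05). Leaving out 1 library gave 3 to 4 calls in MCD, 0 to 1 in 4-week and 5 to 8 in 10-week STAM livers (8 without control replicate 1), 1 to 3 for the age difference, 6 to 9 for MCD against 10-week and 4 to 5 for MCD against 4-week STAM effects. Replicate numbers are shared but showed no sign of pairing samples over all genes. With the replicate block 848 genes were called at 4 weeks, against 1500, and no sample correlated best with its own number (0 of 14 pairs). Over all genes, leaving out 1 library gave 982 (without STAM replicate 1) to 1821 calls at 4 weeks, 5731 to 6213 in MCD and 6590 to 7421 in 10-week STAM livers. Depth limits Hamp2 in 10-week STAM livers, where 6 to 72 reads were counted.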
